A study of Homo sapiens with 27 samples.

Results

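The comparison concerns the symmetric transposon and the wild-type transposon when both are moved by re-engineered piggyBac, in HCT116, a long-established line of human colorectal carcinoma cells. Its members are the 3 libraries labelled as symmetric transposon with re-engineered piggyBac and the 3 labelled as wild-type transposon with the same transposase, 6 of the 27 libraries of the series. Both groups carry a self-reporting transposon, which transcribes out of its own end into the neighbouring DNA so that its position can be read from RNA, and both were kept in puromycin at 3 µg/ml after transfection. The labels give no further genotype. They do not define "re-engineered" or "symmetric", and they do not say whether the replicates came from separate transfections, so the p-values measure only the spread between these libraries, which may be technical. The files hold insertion positions and no expression, so the cell line could not be checked against marker genes. The same contrast with the re-engineered hyperactive transposase, 6 other libraries, is used below as a second pair.

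PiggyBac is a DNA transposon that is cut out and pasted by its transposase. The transposase recognises the ends of the element and inserts it at the tetranucleotide TTAA, which is duplicated on either side of the new copy. In the wild-type element the left end and the right end differ in the arrangement of their repeats, and the name of the symmetric element refers to ends that are alike. The study's title names unlike ends, together with phosphorylation of the transposase's N terminus, as inhibitors of transposition in mammalian cells. Insertions of piggyBac in mammalian cells are known to gather in open, transcriptionally active chromatin and to be sparse in silent, gene-poor DNA.

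A site was the 5′ edge of a listed peak, placed on the first base of the 4-base target, and its height was the authors' maximum coverage of the peak. The positions that all 3 symmetric libraries listed inside a promoter window, which runs from 250 bases before to 50 bases after a gene start, are the recurrent target sites whose surroundings can be read here. Of these, 4 are shown on the plus strand with 28 bases on each side, and capitals mark the target at which the element was inserted. The sequences are RefSeq's for GRCh38.p14, the build to which the positions refer.
EFCAB2-AS1, chr1:244971056-244971115: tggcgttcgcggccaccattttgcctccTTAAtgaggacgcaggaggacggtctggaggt
CHMP4A, chr14:24213634-24213693: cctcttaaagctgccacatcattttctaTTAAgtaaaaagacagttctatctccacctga
SF3B1, chr2:197435229-197435288: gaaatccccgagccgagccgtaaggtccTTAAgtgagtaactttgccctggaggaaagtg
PCOLCE2, chr3:142889080-142889139: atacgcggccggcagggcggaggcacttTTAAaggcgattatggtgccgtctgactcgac

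The SF3B1 site, upstream of the gene for a core subunit of the U2 splicing complex, had a height of 5 in each of the 3 symmetric libraries and of 87, 111 and 125 in the wild-type libraries. The PCOLCE2 site, 28 bases upstream of the start of a gene for an enhancer of procollagen processing, had heights of 9, 12 and 18 with the symmetric transposon and of 108, 15 and 52 with the wild-type one. The CHMP4A site, 177 bases upstream of a gene for an ESCRT-III membrane-remodelling subunit, had 8, 5 and 5 against 23, 33 and none listed. The EFCAB2-AS1 site had 8, 10 and 7 against 141, 129 and 98. Thus 3 of these 4 positions were listed in all 3 wild-type libraries as well.

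The symmetric transposon was listed at far fewer positions. Its libraries held 3212, 2814 and 3143 sites, and the wild-type libraries held 549765, 570354 and 542484. The depth differed as well: the constant in the last column of each file, read here as the total of mapped reads, was 234082 to 255694 with the symmetric transposon and 11383590 to 12051190 with the wild-type one. Per 1000000 of that total there were 12494 ± 1140 (SD, n = 3) symmetric sites and 47413 ± 842 (SD, n = 3) wild-type sites. Listed heights summed to 7.77% to 9.36% of the total in the symmetric libraries and to 83.9% to 85.6% in the wild-type ones. The median height was 6 in every symmetric library and 11 in every wild-type library, close to the smallest listed height of 5 in the first case. Per 1000000 of the total, however, the median height was 24.5 with the symmetric transposon and 0.941 with the wild-type one. Heights are coverage by reads whose handling of duplicates is not given, and are no measure of how many cells carry an insertion.

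Because of this gap, each measure below is given both over all sites and over an equal number of tallest sites: the 2814 tallest of each library, with ties broken at random. The tallest sites of the wild-type libraries had heights of 100 or more, whereas those of the symmetric libraries reached down to 5 and made up 87.6% to 100% of all their sites. For every measure the group means were compared by exact permutation (two-sided) of the 6 libraries, which cannot give a p below 0.1. Over the 18 measures tested this becomes 0.106 after Benjamini-Hochberg adjustment, and no measure can pass 0.05 in this design. Where the groups did not overlap, p was 0.1.

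Most positions listed with the symmetric transposon were also listed with the wild-type one. Of the 7611 positions found in any symmetric library, 5178, or 68.0%, were listed in at least 1 wild-type library of this transposase. They were 0.371% of all wild-type positions. Per library, 71.2% ± 2.53 (SD, n = 3) of symmetric sites were listed there, and 88.4%, 91.4% and 90.5% were listed in at least 1 of the 24 libraries outside the group. Positions seen in 1 symmetric library were in the wild-type lists in 64.7% of 6400 cases, those seen in 2 in 84.5% of 864 cases and those seen in all 3 in 88.2% of 347 cases. The median height of the matching wild-type peak was 40, 65 and 82 in these classes, against 11 over all wild-type positions. Recurrent symmetric sites were thus those with the tall wild-type peaks. In the other direction, 12.1% ± 0.289 (SD, n = 3) of the tallest wild-type sites were listed with the symmetric transposon. Whether shared positions were separate insertions, or reads assigned to more than 1 library, was not tested. The shares over all sites are also given without them, which is no test of this question. Leaving them out removed 71.2% of symmetric but 0.628% of wild-type sites, so the wild-type values could hardly move. Symmetric sites listed only in libraries of the other groups were kept.

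Sites of the symmetric transposon lay near gene starts more often. Within 5 kb of a start of a coding gene were 25.5%, 24.4% and 25.6% of symmetric sites and 10.4%, 10.3% and 10.3% of wild-type sites, a ratio of 2.43. Among the tallest sites the shares were 25.5%, 24.4% and 25.8% against 17.2%, 15.9% and 18.8%, a ratio of 1.46. The groups did not overlap in either case (exact permutation p = 0.1, n = 3 per group). Without the positions listed with both transposons the shares were 20.4% and 10.2%. With heights thinned at random to the smallest file total and peaks under 5 dropped again, they were 24.9% and 15.9%. Starts and 3′ ends were not analysed on chromosome 8, and both shares leave it out. A strand, read from the listed starts, was known for 15812 of the 19974 coding genes, so some genes elsewhere are missing as well.

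Around starts, the sites of both transposons peaked in the same stretch upstream, and the peak was higher with the symmetric one. Between 500 and 1000 bases before the start lay 8.36% ± 0.777 of sites per kb (SD, n = 3) with the symmetric transposon and 1.75% ± 0.0201 (SD, n = 3) with the wild-type one. The first 500 bases after the start held 2.71% ± 0.175 per kb against 0.799% ± 0.006, a dip in both groups over all sites. Among the tallest sites the symmetric transposon kept the dip, with 2.71% per kb there and 3.98% in the next 500 bases. The wild-type one did not, with 2.14% and 1.65%. Over the tallest sites the upstream value of the wild-type transposon was 4.90% ± 0.843 per kb (SD, n = 3) and that of the symmetric one 8.23% ± 0.815. From 2 to 5 kb upstream the densities of the tallest sites were 1.60% ± 0.242 and 1.55% ± 0.233 per kb, and the groups overlapped. At 3′ ends of coding genes, 9.13% ± 0.4995 of symmetric sites and 6.67% ± 0.0534 of wild-type sites lay within 5 kb (SD, n = 3 each). Over the tallest sites these shares were 9.10% and 8.57%, and the groups overlapped (exact permutation p = 0.3, n = 3 per group).

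**Figure D1:**
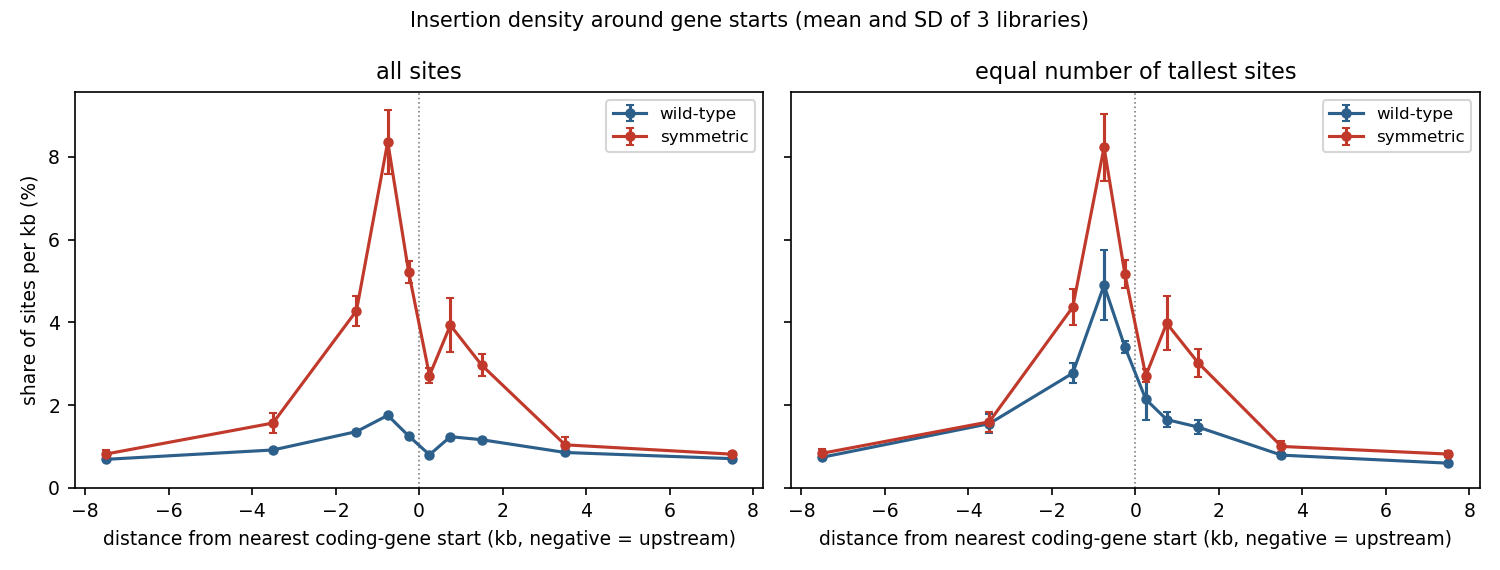
Share of insertion sites per kb (y axis, %) by distance from the nearest coding-gene start (x axis, kb, negative upstream), mean and SD of 3 libraries per group, over all sites (left) and over the 2814 tallest sites of each library (right). Both groups peak in the 500 to 1000 bases upstream of the start. The symmetric libraries reach 8.36% per kb there over all sites, and the wild-type libraries 1.75% over all sites and 4.90% over the tallest sites.

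Gene-poor DNA held fewer symmetric sites. The share over 100 kb from any coding gene was 7.32%, 7.92% and 8.18% with the symmetric transposon and 15.5%, 15.9% and 15.9% with the wild-type one, and 7.73% against 15.8% without the positions listed with both. In the set of tallest sites it was 7.46%, 7.92% and 8.14% against 11.98%, 12.01% and 11.2%. The groups did not overlap in either comparison (exact permutation p = 0.1, n = 3 per group). The share inside coding genes moved less and its direction depended on the sites taken. Over all sites it was 48.0% ± 0.720 against 49.9% ± 0.102 (SD, n = 3 each), and over the tallest sites 47.8% ± 0.564 against 41.9% ± 0.882. Without the positions listed with both transposons it was 54.4% against 49.95%, and thinned to the smallest file total 47.6% against 43.0%, higher with the symmetric transposon in both cases.

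Inside genes, the symmetric transposon was found on the gene's own strand more often than the wild-type one. For sites within exactly 1 coding gene of known strand, 42.9%, 41.6% and 43.8% of symmetric sites were listed on the strand of the gene, against 35.0%, 35.6% and 36.0% of wild-type sites. Without the positions listed with both transposons the shares were 41.0% and 35.5%. Both groups were thus listed in the antisense direction in most cases. Chromosome 8, where no strand was known, is left out of these shares. With the tallest sites alone the shares were 42.3%, 41.6% and 43.5% against 38.5%, 37.7% and 38.7%, again without overlap (exact permutation p = 0.1, n = 3 per group). Positions listed on both strands made up 0.752%, 1.11% and 0.969% of the tallest symmetric positions and 0.107%, 0.214% and 0.142% of the tallest wild-type positions. Over all sites the order was the other way round: 0.716% to 1.14% of symmetric and 4.78% to 5.01% of wild-type positions were listed on both strands.

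Insertion hot spots were set apart with 3 libraries of neither group, those of the wild-type transposon with unmodified piggyBac: the 303 of 30300 windows of 100 kb that held most of their sites, 1% of the genome. These windows held 23.3%, 26.4% and 25.1% of symmetric sites and 6.53%, 6.48% and 6.52% of wild-type sites, a ratio of 3.83, and 20.8% against 6.39% without the positions listed with both. For the tallest sites the order was reversed, with 24.0%, 26.4% and 25.1% against 32.6%, 33.97% and 31.98%. The groups did not overlap in either case (exact permutation p = 0.1, n = 3 per group). Thinned to the smallest file total, all listed sites gave 25.6% against 26.9%, with overlap (exact permutation p = 0.4, n = 3 per group). The share followed peak height in both groups. It went from 21.8% of symmetric sites of height 5 to 6 to 34.7% of those of height 10 to 19, and from 5.04% of wild-type sites of height 5 to 6 to 31.8% of those of height 100 or more. At the same listed height of 10 to 19, 34.7% ± 4.05 of symmetric and 5.81% ± 0.0159 of wild-type sites lay in these windows (SD, n = 3 each). Equal heights are reached at unequal depths in these libraries, so this is a description at one height and no match of depth.

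**Figure D2:**
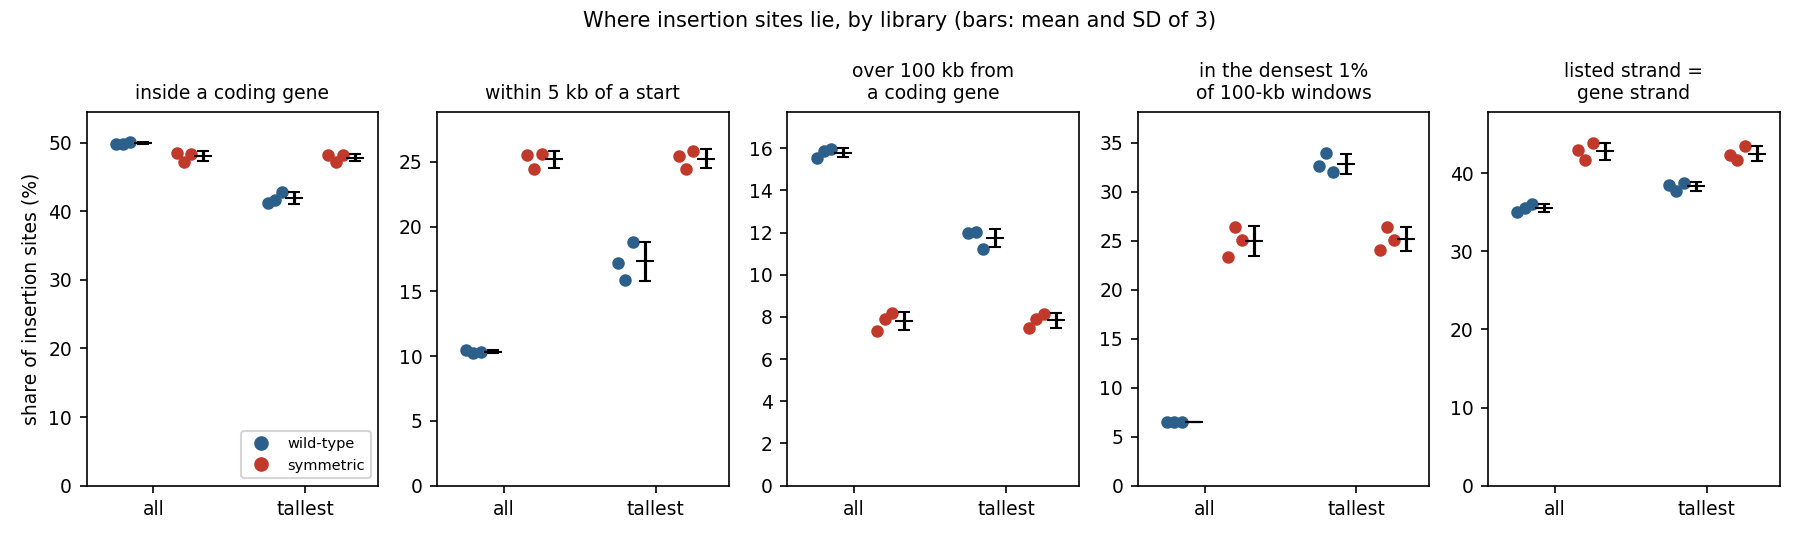
Share of insertion sites (y axes, %, each from 0) in each of the 3 symmetric and 3 wild-type libraries, over all sites and over the 2814 tallest, for 5 measures: inside a coding gene, within 5 kb of a coding-gene start, over 100 kb from a coding gene, in the 303 densest windows and on the strand of the gene. Points are libraries, with mean and SD beside them; the symmetric libraries are higher near starts and lower far from genes in both sets, while the densest windows change order, from 24.95% against 6.51% to 25.2% against 32.9%.

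TTAA was the main target of both transposons. Promoter windows held 39 to 42 sites per symmetric library and 2168 to 2259 per wild-type library, 1.43% ± 0.127 and 0.424% ± 0.004 of sites outside chromosome 8 (SD, n = 3 each). Taking only the tallest sites these shares were 1.41% and 0.838%. Of the sites in the windows, 95.9% ± 1.52 of symmetric and 97.5% ± 0.209 of wild-type ones sat on TTAA (SD, n = 3 each). Of the tallest sites there, 33 of 35, 39 of 41 and 34 of 35 in the symmetric libraries and all 21, 23 and 21 in the wild-type ones did. The 5 symmetric listings that did not, counted library by library and perhaps not all at distinct positions, were on CTAA, CTAG or TTAT. The windows contain 28785 TTAA, of which 92 (0.320%) carried a symmetric and 4476 (15.5%) a wild-type insertion, and 83 of the 92 carried both. The sequence around used TTAA was richer in G and C than around TTAA in general. Over 25 bases on each side, GC content was 42.6% for all TTAA in the windows, 47.6% for those used by the wild-type transposon, 53.5% for those among its tallest sites and 53.9% for those used by the symmetric one. The base next to the target, read outward on both sides as if before it, was C at 37.8% of TTAA used by the symmetric transposon, at 27.5% of those used by the wild-type one and at 21.0% of all. Among the tallest sites this gap was absent, with C at 37.0% of 81 symmetric and 39.1% of 55 wild-type positions. Of the 4 sequences shown above, those at PCOLCE2, EFCAB2-AS1 and SF3B1 had a GC content of 64.3%, 64.3% and 57.1% outside the target and that at CHMP4A 39.3%. These base shares rest on 90 symmetric positions and have no replicate error. As 83 of the 92 TTAA used by the symmetric transposon were shared, its TTAA and base shares mainly describe positions listed with both transposons. They were not computed without the shared positions.

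Along the chromosomes, symmetric sites were shifted toward gene-dense regions. Chromosome 19, the most gene-dense, held 4.40% ± 0.365 of symmetric and 1.38% ± 0.00471 of wild-type sites, a ratio of 3.18. The ratios were 2.01 for chromosome 22 and 1.89 for chromosome 17, and 0.419 for chromosome 13 and 0.435 for X. Among the tallest sites the ratio was 1.58 for chromosome 19 (4.44% ± 0.419 against 2.81% ± 0.320) and 0.759 for chromosome 13, without overlap, while for chromosomes 17, 22 and X the groups overlapped, with ratios of 1.01, 1.31 and 1.09 (SD, n = 3 each throughout).

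In bins of 10 Mb, 268 bins held enough sites to be tested with limma on the log2 share of sites, and 167 (62.3%) had an adjusted p under 0.05. Of these, 57 (21.3% of those tested) rose and 110 (41% of those tested) fell with the symmetric transposon. The median bin lay 0.51 below 0 on the log2 scale. Measured from that median, 132 bins passed, 93 higher and 39 lower. The bins that rose held a median of 98 coding genes, those that fell 41.5, and all tested bins 54. All 5 tested bins of chromosome 19 rose. Spearman's correlation between a bin's log2 change and its number of coding genes was 0.61 over 268 bins, which share the 6 libraries, and 0.38 over the 236 bins tested with the tallest sites. The 3 and 3 libraries did not overlap in 210 bins (78.4%). With wild-type replicate 1, 2 or 3 left out, 102, 104 and 101 bins passed.

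The largest rise was on chromosome 4 from 30 to 40 Mb, the region around PCDH7. The symmetric libraries had 85, 89 and 84 sites there, or 265, 316 and 267 per 10000, and the wild-type libraries 61.2, 63.1 and 63.2 per 10000, a log2 change of 2.17 ± 0.07 (SE, limma adjusted p = 6.24e-07). This bin holds 27 coding genes and was an exception to the relation with gene content. The first 10 Mb of chromosome 19, with 324 coding genes, had 134, 103 and 156 against 30.6, 30.4 and 29.5 per 10000, a log2 change of 2.09 ± 0.15 (SE, limma adjusted p = 2.33e-05). The other bins with the largest rises were chromosome 17 from 80 Mb (1.96), chromosome 19 from 10 Mb (1.81) and chromosome 1 from 0 Mb (1.72). The bins with the largest falls were nearly empty in the symmetric libraries. On chromosome 5 from 100 to 110 Mb there were 0, 2 and 1 symmetric sites against 1830, 1976 and 1762 wild-type sites, or 3.43 against 33.5 per 10000, in a bin of 14 coding genes. On chromosome 2 from 140 to 150 Mb, with 13 coding genes, there were 2, 0 and 1 against 1676, 1805 and 1733 (limma adjusted p = 0.038 for both). The bins on chromosome 6 from 90 Mb, chromosome 4 from 120 Mb and chromosome 3 from 160 Mb held at most 2 symmetric sites per library as well. The calls of the bins on chromosomes 5, 2 and 6 were lost when symmetric replicate 3 was left out (limma adjusted p = 0.069, 0.064 and 0.071) and when wild-type replicate 1, 2 or 3 was (limma adjusted p from 0.116 to 0.173).

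Fewer bins differed over the tallest sites. Of 236 bins tested, 21 (8.9%) passed the limma test, 10 (4.24% of those tested) higher and 11 (4.66%) lower, and the median was 0.02. Of the 21, 13 had passed in the same direction over all sites and 5 in the opposite one. The 10 higher bins held a median of 253 coding genes and the 11 lower ones 44, against 58 over all tested bins. Of the 5 bins of chromosome 19, 3 were among the higher ones.

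**Figure D3:**
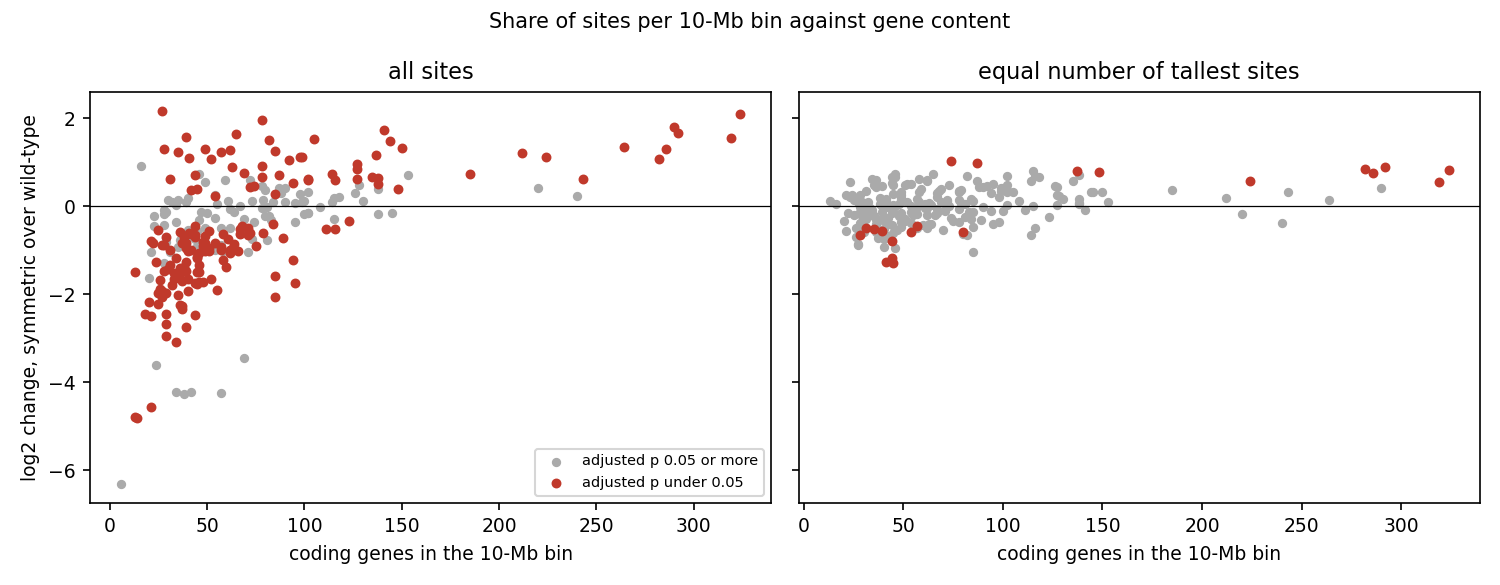
Log2 change in the share of sites per 10-Mb bin, symmetric over wild-type (y axis), against the number of coding genes in the bin (x axis), over all sites (268 bins, left) and over the 2814 tallest sites per library (236 bins, right). Points in red have a limma adjusted p under 0.05; on the left all bins with over 250 coding genes lie above 0, and the spread is much smaller on the right, where 21 bins pass in place of 167.

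Single genes could be tested only where sites were many. Of the 19974 coding genes, 55 had a mean of at least 5 sites per 10000 over the 6 libraries, within the gene or 5 kb around it. All 55 reached that level in the symmetric libraries and 41 of them stayed below it in the wild-type ones, so most had to be higher with the symmetric transposon, and the count of 45 (81.8%) higher with a limma adjusted p under 0.05 is no support for a shift. No gene passed in the other direction, none at an unadjusted p under 0.05, and none with voom. In 14 of the 45 no symmetric library had 5 sites, and in 12 every symmetric library had at least 5. The 3 and 3 libraries did not overlap in 50 of the 55 genes (90.9%). The genes are therefore given by their sites.

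The genes with most symmetric sites were hot spots of both transposons. PCDH7 (chr4:30720369-31146800, plus strand), a protocadherin of the cell surface, had 77, 81 and 83 sites in the symmetric libraries, or 240, 288 and 264 per 10000, and 1275, 1312 and 1299 sites in the wild-type ones, or 23.2, 23.003 and 23.9 per 10000. The log2 change was 3.49 ± 0.07 (SE, limma adjusted p = 2.21e-08). Over the tallest sites it had 70, 81 and 74 against 61, 75 and 62 sites, and the groups overlapped (log2 change 0.18 ± 0.10, SE; limma adjusted p = 0.294). The high share at PCDH7 was thus present in the tall peaks of both transposons. Per 100 kb of gene and flank, PCDH7 had 60.5 symmetric sites per 10000, against 20.5 for VTI1A, 17.0 for PPP3CA and 6.998 for DLGAP1.

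The next 3 genes also differed over all sites and overlapped over the tallest. VTI1A (chr10:112446988-112855368), a SNARE of vesicle fusion, had 30, 21 and 28 symmetric sites, 85.7 ± 9.83 per 10000, against 11.98 ± 0.191 (SD, n = 3 each), and 26, 21 and 25 against 24, 24 and 21 among the tallest. DLGAP1 (chr18:3496032-4455307), a scaffold protein of the postsynaptic density, had 23, 21 and 18 symmetric sites, 67.8 ± 9.27 per 10000 against 7.20 ± 0.207, and 23, 21 and 15 against 22, 24 and 17 among the tallest. PPP3CA (chr4:101023418-101347526), the catalytic subunit of calcineurin, had 18, 16 and 18 symmetric sites, 56.7 ± 0.626 per 10000 against 9.72 ± 0.293, and 16, 16 and 17 against 15, 20 and 13 among the tallest. All of these groups overlapped among the tallest sites, and the log2 changes there were 0.05, -0.09 and 0.04.

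NSMCE2, a SUMO ligase of the SMC5/6 complex, and PHLDB2, which helps anchor microtubules at the cell cortex, changed direction between the sets. NSMCE2 had 56.6 ± 8.98 symmetric and 9.55 ± 0.120 wild-type sites per 10000 over all sites, and 14, 15 and 17 against 24, 25 and 25 sites among the tallest (log2 change -0.62 ± 0.08, SE; limma adjusted p = 0.007). PHLDB2, chosen after its values were seen, had 46.8 ± 6.35 against 8.41 ± 0.315 per 10000, and 14, 12 and 15 against 19, 23 and 20 sites among the tallest (log2 change -0.53 ± 0.11, SE; limma adjusted p = 0.040). In both, the tallest sites of the groups did not overlap. Over the tallest sites 14 of 116 genes passed (12.1%), 5 higher (4.31% of those tested) and 9 lower (7.76%), but 10 of the 14 had at most 5 sites in every library.

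**Figure D4:**
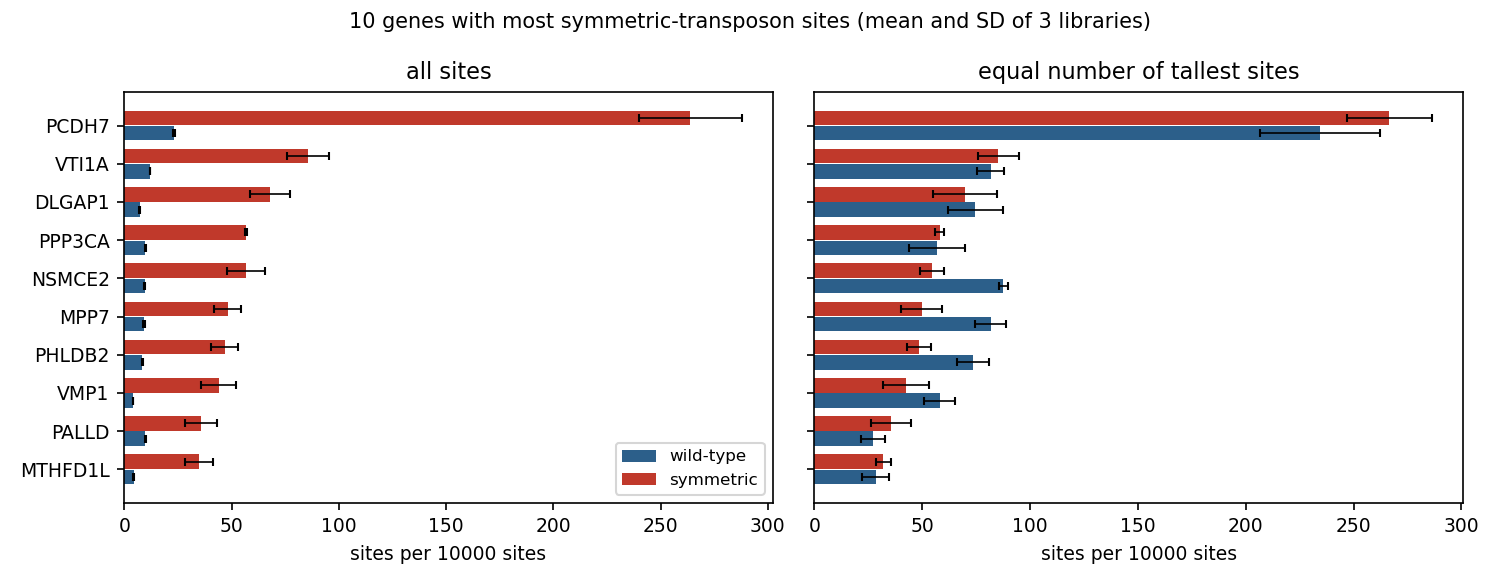
Sites per 10000 sites (x axes) at the 10 genes with most symmetric sites, mean and SD of 3 libraries, over all sites (left) and over the 2814 tallest sites per library (right). Over all sites the symmetric bar is the longer at each gene; over the tallest sites PCDH7 stands at 267 with the symmetric and 235 with the wild-type transposon, and at DLGAP1, NSMCE2, MPP7, PHLDB2 and VMP1 the wild-type bar is the longer.

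Most genes with the largest log2 changes among those called rested on few sites, and all but PCDH7 passed the filter through the symmetric group alone, so that their direction was fixed by it and their changes are a description. AP3D1, a subunit of the AP-3 vesicle coat, had 3 sites in each symmetric library, 9.85 ± 0.711 per 10000, against 13 to 16 sites or 0.253 ± 0.0336 per 10000 in the wild-type libraries (log2 change 4.94 ± 0.19, SE). H4C11, a histone H4 gene, had 1, 4 and 4 symmetric sites against 17, 19 and 16 (4.44 ± 0.56, SE). PC, which encodes pyruvate carboxylase, had 3, 3 and 4 against 34, 50 and 34 (3.82 ± 0.28, SE), and BCOR, a corepressor subunit, 6, 2 and 5 against 54, 59 and 55 (3.58 ± 0.41, SE). Besides PCDH7, the other genes of this group were UNK, PDP1, BCAS4, AMN1, LOC400499, VMP1 and SYTL3, with log2 changes between 3.30 and 4.02. VMP1, which acts in autophagosome formation, had more sites than the others, 13, 15 and 12 against 223, 231 and 220, and among the tallest sites 12, 15 and 9 against 14, 18 and 17, a log2 change of -0.41 that did not pass (limma adjusted p = 0.253).

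The genes richest in wild-type sites did not all pass the test. ZBTB20, a zinc-finger repressor among the 5 genes with most wild-type sites, had 3, 4 and 1 symmetric sites, 8.91 ± 5.53 per 10000, against 11.9 ± 0.355 (SD, n = 3 each). Its log2 change of -0.66 did not pass (limma adjusted p = 0.239). PALLD, an actin-associated scaffold that was also among the 5, rose, with 10, 9 and 14 sites, 35.9 ± 7.51 per 10000 against 9.80 ± 0.126 (log2 change 1.84 ± 0.15, SE; limma adjusted p = 2.21e-05).

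Of the gene lists, 3 members were among the 55 genes tested, and the lists are given by the summed sites of their members, with no test. The 81 ribosomal protein genes, short genes that nearly all cells transcribe strongly, had 11, 9 and 9 sites in the symmetric libraries, or 31.6 per 10000, against 10.6 per 10000 in the wild-type ones. In the set of tallest sites they had 10, 9 and 7 against 1, 0 and 3, so the groups did not overlap in either set. Per Mb of the 1.34 Mb taken for this list, the values over all sites were 23.5 against 7.89 per 10000. With the re-engineered hyperactive transposase the tallest sites gave 29.6 against 17.8 per 10000, and there the groups overlapped. None of the 81 had enough sites to be tested alone.

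The lists of very long genes showed the opposite over all sites. The 28 genes at common fragile sites, which are among the longest in the genome, had 3, 7 and 6 symmetric sites, 17.8 per 10000, against 75.8 per 10000 with the wild-type transposon. No member of this list was called, but only 1 was among the 55 genes tested, of which 81.8% were called. The other members had too few sites to be tested alone. Of 40 long neuronal genes, which code for adhesion proteins, receptors and channels of neurons, each symmetric library had 2 sites, 6.57 per 10000 against 44.9. Over the tallest sites the groups overlapped for both lists: the fragile-site genes had 2, 7 and 6 sites against 3, 6 and 4, and the neuronal genes 2, 2 and 2 against 1, 4 and 1.

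For the lists chosen for a carcinoma line the ratios were nearer to 1. The 40 cell-cycle and tumour-suppressor genes had 12, 17 and 13 symmetric sites, 46.4 per 10000 against 26.8, without overlap, and 10, 17 and 13 against 12, 9 and 9 among the tallest, with overlap. Their member SMAD3, the transcription factor that relays TGF-beta signals, had 3, 5 and 3 sites against 107, 131 and 117 (log2 change 2.41 ± 0.32, SE) and 2, 5 and 3 against 2, 3 and 4 in the tallest set (log2 change 0.07, limma adjusted p = 0.903). The 48 genes of growth factor and RAS-PI3K signalling had 43.5 per 10000 against 32.1, without overlap, and 41.5 against 29.6 among the tallest, where the lowest symmetric and the highest wild-type library tied at 31.98. Their member MET, the receptor of hepatocyte growth factor, had 5, 4 and 4 sites against 230, 226 and 212 (1.80 ± 0.17, SE) and 5, 4 and 3 against 1, 3 and 3 in the tallest set (0.50, limma adjusted p = 0.288). Both genes passed the filter through the symmetric group alone, so no test over all sites is given. The median log2 change of the 55 tested genes was 2.43, above MET and just above SMAD3. The 48 Wnt pathway genes had 27.1 against 31.0 per 10000 over all sites, with overlap, and 27.2 against 17.8 among the tallest, without. The 34 genes of gut epithelial identity had 19.8 against 14.2 and overlapped in both sets.

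**Figure D5:**
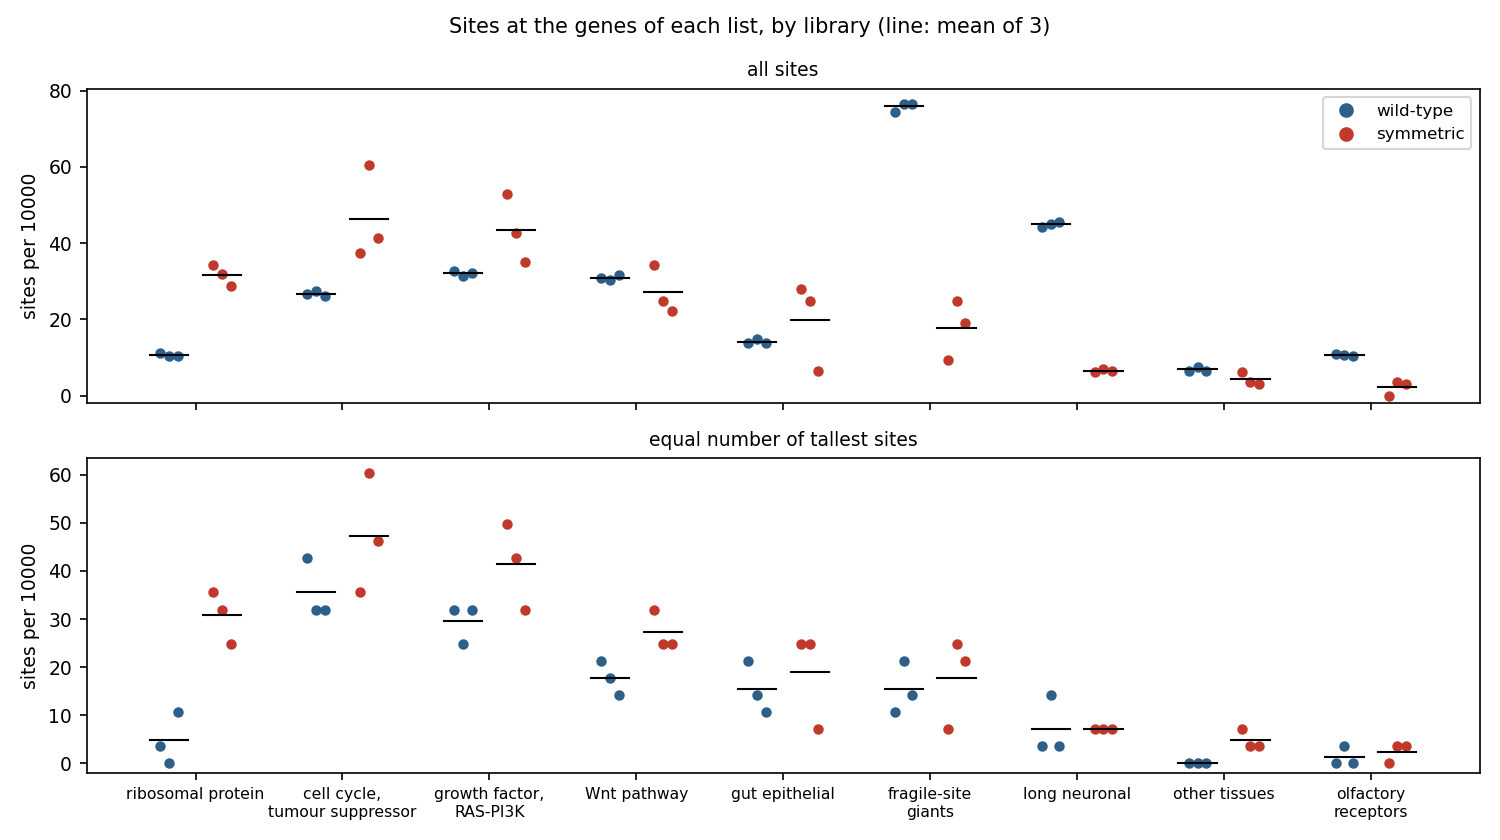
Sites per 10000 sites (y axes) at the genes of each of 9 lists in each library, with the mean of 3 as a line, over all sites (top) and over the 2814 tallest per library (bottom). Ribosomal protein genes are higher in the symmetric libraries in both panels (31.6 against 10.6 and 30.8 against 4.74 per 10000), whereas the gap at fragile-site giants and long neuronal genes appears in the top panel alone.

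The same contrast with the re-engineered hyperactive transposase, which shares no library with this one, gave similar values. The pairs do share positions, however. Of the symmetric sites with re-engineered piggyBac, 38.5% ± 4.30 were listed in the symmetric and 65.9% ± 3.23 in the wild-type libraries of that pair (SD, n = 3 each). Whether these were separate insertions was not tested, so the pair is no independent repeat. There the symmetric and the wild-type transposon had 25.9% and 11.7% of sites within 5 kb of a start, and 26.8% and 19.5% among the tallest. Sites over 100 kb from a gene were 7.58% and 14.9%, and the densest windows held 24.9% and 7.60%. With the tallest sites alone the densest windows held 26.0% ± 0.505 and 27.3% ± 3.32 (SD, n = 3 each; exact permutation p = 0.5), a smaller gap than with re-engineered piggyBac, but the difference between the 2 transposases was not tested for this measure. Across the 268 bins, Pearson's r between the log2 changes of the 2 pairs was 0.85, a correlation across bins, which are no independent replicates. In that pair limma called 63.4% of the 268 bins and 72.7% of the 55 genes. Of the 167 bins called with re-engineered piggyBac, 166 had the same sign in the other pair and 131 were called in both. limma's interaction term, which tests whether the change differed between the transposases, called none of the 268 bins (0%), with 30 at an unadjusted p under 0.05, and 1 of 55 genes (1.82%), PCDH7. The filter for that fit ran over all 12 libraries, and 46 of its 55 genes were among the 55 tested above.

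Replicates were also compared by the sites they share. Of the 2814 tallest sites of a library, 19.6%, 21.4% and 20.8% were among the tallest of another symmetric library, and 18.6%, 18.5% and 18.1% for the wild-type transposon (means over the other 2 libraries; exact permutation p = 0.1, n = 3 per group). The 3 values of a group are built from the same pairwise overlaps and are not independent, so this p is a description only. The difference of 2.19 points became 4.23 without symmetric replicate 1 and 0.57 without symmetric replicate 2. Positions listed in all 3 symmetric libraries lay in the densest windows in 47.6% of cases and those listed in 1 library in 18.4%.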

How the data were processed

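Per the submitters' processing notes, cutadapt 3.4 and HISAT2 2.2.1.0 were used, with the builds hg38 and GRCh38.p5. The peak caller and the handling of duplicates are not given in the sources used here. The authors deposited 1 headerless peak list per library. Its deposited signal columns are summed coverage and peak height (maximum coverage), not scaled to depth, with a smallest height of 5; a last deposited column, a constant of other kind, was taken as the total of mapped reads, which no source states.

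Sites were distinct positions on chromosomes 1 to 22 and X, placed on the first base of the 4-base target on both strands. Genes, starts and promoter sequences came from RefSeq (GRCh38.p14; 19974 coding genes, 15812 with a strand). Shares were tested with two-sided exact permutation tests. Bins (10 Mb, mean of at least 10 sites per 10000) and genes (at least 5, window 5 kb) were tested with limma 3.58.1 in R 4.3.3 on log2 of sites per 10000 plus a prior of 2 sites at the mean library size, with Benjamini-Hochberg adjustment; this prior is a small fraction of 1 site in a symmetric library. The fits were tested on simulated data. Other work used Python 3.11.15. Named were the called genes without overlap with the largest log2 changes (12 per direction; 5 for bins), list members tested and the 5 genes with most sites per group; 1 gene that this rule takes is not reported here. The members, measures and lists were chosen with earlier results of these data known. Replicate numbers did not pair libraries. Alternatives were leaving out each library, a minimum height of 10, thinning to the smallest total, random or merged sites, other windows, priors, filters, bin sizes and voom.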

Additional observations from a re-analysis of the deposited data

Results flagged for a closer look

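The limma interaction term, fitted to the 55 genes that passed the filter over the 12 libraries of both transposases, called PCDH7 alone, with 5 of the 55 at an unadjusted p under 0.05. Of these genes, 46 were also among the 55 tested with re-engineered piggyBac. Its log2 change was 3.49 with re-engineered piggyBac and 2.97 with the hyperactive form, a difference of -0.51 (limma interaction term, adjusted p = 0.006). The shares were 264 against 23.4 sites per 10000 with the former and 238 against 30.3 with the latter, so the share of sites there was higher in all 6 symmetric libraries. Over the tallest sites of equal number the interaction term called 0 genes, with 14 at an unadjusted p under 0.05.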

How the results depend on the processing

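Of the differences in per-library measures, those near starts, far from genes and in strand kept their direction under every alternative run for them. Those that reversed are given here, and their cause was not tested. The share inside genes over all sites was 4.65 percentage points higher with the symmetric transposon after thinning to the smallest total and 4.44 higher without positions listed with both transposons. The densest windows differed by -1.33 points over all sites and by 5.51 over the tallest after thinning, which left 708 to 798 wild-type sites per library. The median height, per 1000000 of the total, was 23.6 higher. Sharing among replicates was 3.97 points lower (-3.97) at a minimum height of 10. Leaving out a library gave 101 to 188 called bins, 36 to 51 genes, 0 to 4 bins and 1 to 3 genes for the difference between transposases. Called bins numbered 21 over the tallest sites, 92 at a minimum height of 10 and 106 in bins of 20 Mb, where fewer bins were tested; the difference between transposases called 1 bin over the tallest sites. Called genes numbered 14 over the tallest sites, 14 at a doubled minimum mean (16 tested), 27 after centring on the median (20 higher, 7 lower) and 13497 with no filter (331 higher, 13166 lower), where most genes had no or few symmetric sites. The gene interaction called 0 genes over the tallest sites. Of the named genes, the tallest sites reversed DLGAP1 (-0.093), NSMCE2 (-0.62), SYTL3 (-0.23), UNK (-0.11), VMP1 (-0.41) and, of the bins, the first 10 Mb of chromosome 1 (-0.093). A minimum height of 10 reversed MET (-2.67), PALLD (-3.59), PC (-0.21) and SMAD3 (-1.75), and centring reversed MET (-0.14) and PALLD (-0.089). The replicate number as a block gave 177 bins and 45 genes, and changed no named call; voom gave 158 and 51, and a prior of 2 sites in the smallest library, chosen after seeing the data, 184 and 43. Depth limits the symmetric group most: a gene with 3 sites there stands at about 10 per 10000.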

Other observations

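Olfactory receptor genes, 390 small genes that lie mostly in clusters, held 2.25 symmetric and 10.7 wild-type sites per 10000 over all sites, without overlap. The symmetric libraries had only 0, 1 and 1 sites there. Among the tallest sites both groups were near 0, with 2.37 and 1.18 per 10000. The 26 identity genes of liver, muscle and blood held 4.32 symmetric and 6.88 wild-type sites per 10000. Among the tallest sites they were listed at 4.74 per 10000 with the symmetric transposon and at 0 in all 3 wild-type libraries. The symmetric values rest on the same 2, 1 and 1 sites per library in both sets, too few for a contrast.

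Listed peaks were narrower with the symmetric transposon, with a median width of 59 to 72 bases against 110 to 113. Wild-type peaks that also lay at a symmetric position had a median height of 36.0 ± 2.65 (SD, n = 3), and 27.9% ± 0.514 of them were within 5 kb of a start, against 10.2% ± 0.0857 of the other wild-type sites. These are the shared positions, with a start share of 27.2% counted from the symmetric lists. The 27.9% thus follows from how they were picked and is no separate observation.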
